A study of Gallus gallus with 2 samples.

Results

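Zinc finger genes with ZNF, ZBTB, ZFP or ZSCAN symbols were followed in chicken DT40 cells with and without the histone variant H2A.Z. They were chosen by symbol: any gene whose annotated symbol was one of these prefixes followed by a digit, with a signal above 58 on at least 1 array. The array carried 118 such symbols on 276 probe sets, and 98 of them passed the signal limit, of 9550 genes that passed it in all. The members were 67 ZNF genes, 24 ZBTB genes and 7 ZFP genes, and no ZSCAN gene was among them. The signal limit used the same 2 arrays that were then compared, so that a gene seen on 1 array only had to differ between them.

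Most of these genes encode C2H2 proteins, in which a pair of cysteines and a pair of histidines hold a zinc ion and fold a short finger that reads DNA. In ZBTB proteins the fingers follow a BTB domain, which makes dimers and recruits corepressors, and several members of this class direct lymphocyte development in mammals. The symbol is no guarantee of that structure. ZFP36L1 and ZFP36L2 have fingers of another type that bind messenger RNA, ZNF185 is a LIM domain protein, and ZBTB8OS encodes archease, a partner of the tRNA ligase named for its place beside ZBTB8A.

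DT40 is a B lymphoma line from the chicken bursa of Fabricius. The double knockout array came from a clone that permanently lacks H2A.Z-2 and whose H2A.Z-1 was supplied by a transgene repressed by tetracycline. Its RNA was prepared on day 3 of the drug. The wild-type array came from a wild-type clone of the same line. The labels give the same tetracycline step for both samples but name drug and day in the title of the knockout sample only, and whether the wild-type culture received the drug is not stated. The knockout clone was not measured without it, so genotype and clone, and the drug if wild type was untreated, cannot be told apart. There was 1 array per group and no replicate, so no test was made and no difference below has a replicate check.

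Each value is a MAS5 signal on a linear scale from the brightest measured probe set of a gene. The ratio is log2 of the knockout signal minus log2 of the wild-type signal, after signals under 58 were set to 58. That limit lies near the median of all probe sets, and a ratio with 1 array under it is a bound, written "at least". The only error that could be estimated was between probe sets of the same gene. Its SD on the log2 ratio was 0.33 over 30 members with 2 probe sets above the limit on both arrays, and 0.41 over 2240 such genes on the whole array. Such an SD covers how well probes agree and how isoforms differ, but says nothing of variation from culture to culture.

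Both targeted genes had far lower signals on the knockout array. H2AFZ, the annotated symbol of H2A.Z-1, had a signal of 387 in the knockout and 27331 in wild type, and H2AZ2 had 17.6 in the knockout and 18244 in wild type. The position of these probes relative to the deletions and the transgene was not examined. Of the B cell markers, 11 of 12 were measured, and all 11 were above the limit on both arrays. Their summed signal was 35560 in the knockout and 56717 in wild type, of which CD74 had 5510 in the knockout and 14969 in wild type. Of the 11, 9 were lower and 2 higher, where 51.5% of all measured genes were higher. The higher ones were LYN (log2 ratio 0.44) and EBF1 (0.47, with a second probe set at -0.33). Markers of other cell types were measured for 6 of 12 T cell genes (summed signal 4832 in the knockout and 13538 in wild type, most of it CD3D), 3 of 12 myeloid genes (1661 in the knockout and 478 in wild type, most of it MMP9), 7 of 12 erythroid genes (615 in the knockout and 346 in wild type) and 8 of 12 stromal genes (1136 in the knockout and 859 in wild type). The sums used signals as deposited, also those under 58. Of the 7 erythroid genes, 5 were above the limit on the knockout array only and so had to be higher there. The other 2, SPTB (log2 ratio -0.06) and HBZ (-0.24), were lower. Of the 6 T cell genes, 3 were above the limit in wild type only. Of the 8 stromal genes, 3 were above it in the knockout only and 1 in wild type only. Over all measured genes, 9.47% were above it in the knockout only and 6.63% in wild type only. All these 1-array markers had a brighter array between 58 and 200. Of the 3035 genes in that range, 890 were above the limit in the knockout only and 597 in wild type only. The part of these marker differences in the zinc finger ratios was not tested. In such bulk RNA fewer cells of a type and less RNA per cell cannot be told apart. The ratio of 3′ to 5′ signal was 1.46 in the knockout and 1.23 in wild type for EF1A, and 1.07 in the knockout and 1.03 in wild type for GAPDH. The ratio of 3′ to middle signal was 1.39 in the knockout and 1.13 in wild type for actin. It was 1.02 in the knockout and 0.87 in wild type for EF1A, and 1.22 in the knockout and 1.06 in wild type for GAPDH. Each of these was higher in the knockout, and their part in the zinc finger ratios was not tested.

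As a class, the zinc finger genes had ratios much like those of the array as a whole. The median log2 ratio of the 98 members was 0.07, beside 0.02 over all 9550 measured genes, and the interquartile range of the members was -0.35 to 0.37, beside -0.36 to 0.33. A ratio above 0 was found for 51 members (52.0%, against 51.5%). At 2-fold, 3 members were higher in the knockout (3.06%, against 3.95% of all measured genes) and 6 were lower (6.12%, against 6.71%). At 1.5-fold, 12 were higher (12.2%, against 12.6%) and 15 were lower (15.3%, against 15.9%), which leaves 71 with a ratio or bound under 1.5-fold (72.4%, against 71.5%). Of these, 66 were above the limit on both arrays, and for the 5 bounds the difference may be larger. These shares were close to the background, so the counts are not a result about zinc finger genes. The split at 2-fold depended on scaling: after median centring 6 members were higher and 5 lower, and after quantile normalization 4 were higher and 5 lower.

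**Figure D1:**
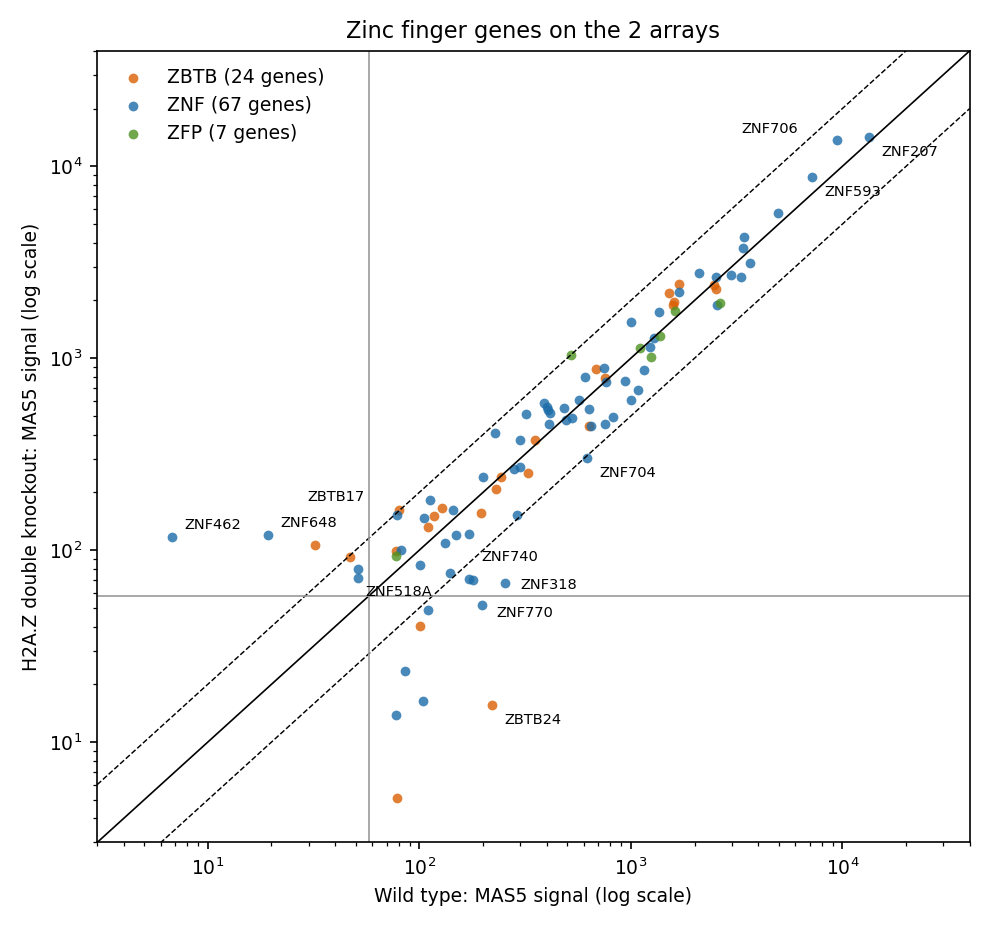
MAS5 signals of the 98 measured zinc finger genes, with wild type on the horizontal and the H2A.Z double knockout on the vertical log axis, 1 point per gene and 1 array per group. The solid line marks equal signals, dashed lines 2-fold, and grey lines the limit of 58. Labelled genes are the 9 that were at least 2-fold apart after signals under 58 were set to 58, which are all dim to moderate, and ZNF207, ZNF706 and ZNF593, which have the highest signals and lie near the solid line.

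Of the members, 84 were above 58 on both arrays, 6 on the knockout array only (6.12%, against 9.47% of measured genes) and 8 on the wild-type array only (8.16%, against 6.63%). Among the 84, 1 member was 2-fold or more higher (1.19%, against 3.23% of all genes above the limit on both arrays). At least 2-fold lower were 4 (4.76%, against 6.55%). At 1.5-fold, 8 of the 84 were higher (9.52%, against 11.0%) and 10 lower (11.9%, against 16.2%). Their median was 0.08, beside 0.0035 for the 8013 genes of that kind. The members just inside the limit were ZNF608, with 71.4 in the knockout and 51.0 in wild type, and ZNF521, with 13.8 in the knockout and 77.6 in wild type. Just outside were ZNF654, with 57.0 in the knockout and 51.0 in wild type, and ZBTB37, with 18.2 in the knockout and 56.7 in wild type.

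With signals as deposited, the 2-fold differences were all in members with signals under 1000. In the 32 members whose brighter array lay above 1000, none was 2-fold apart and 4 were 1.5-fold apart. Over all genes in that range the shares were 7.76% and 21.5%. With 32 members, the lack of a 2-fold difference is not a result about them. ZFP36L2, in this range, had a log2 ratio of 0.993. It passed 2-fold after median centring (1.15), quantile normalization (1.10) or loess scaling (1.08). In the 32 whose brighter array lay between 58 and 200, 6 were 2-fold apart and 14 were 1.5-fold apart. There the shares over all genes were 9.13% and 30.3%. The other 3 of the 9 genes past 2-fold, ZNF318, ZBTB24 and ZNF704, lay between 200 and 1000, where 17.2% of all genes were 2-fold apart.

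ZNF318 had the lowest ratio among members above the limit on both arrays. In mice it is needed for B cells to make IgD besides IgM from the same long transcript. Its signal was 67.3 in the knockout and 255 in wild type, a log2 ratio of -1.92 or 3.79-fold lower. It has 1 measured probe set, on chromosome 3 of the RefSeq assembly GRCg7b, and its knockout signal is close to the limit. Of its measured neighbours on that assembly, FAM98A had a ratio of -0.06 and ABCC10 was above the limit in wild type only, at least 1.29-fold lower. The ratio of ZNF318 was between -1.92 and -1.32 under the 8 alternative settings that measured it, some of which could not change it.

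ZBTB24 was the only ZBTB gene lower by a bound past 2-fold. In humans its loss causes a form of the ICF syndrome, an immunodeficiency in which DNA methylation is lost near centromeres. The knockout array gave it 15.6, under the limit, and the wild-type array 220, so it was at least 3.79-fold lower. Its other 2 probe sets were under the limit on both arrays, so the value rests on 1 probe set, whose name (ending in _s_at) marks it as matching several transcripts. Without shared probe sets ZBTB24 was not measured.

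Of the other 4 genes lower by 2-fold, only ZNF704 had several measured probe sets that all passed 2-fold. ZNF704, a relative of ZNF395, had 302 in the knockout and 622 in wild type, a log2 ratio of -1.04, and its other probe sets gave -1.74 (113 in the knockout and 376 in wild type) and -1.52 (74.2 in the knockout and 212 in wild type). ZNF740 had 70.3 in the knockout and 179 in wild type, a log2 ratio of -1.35 on 1 probe set. All 3 probe sets of ZNF704 were lower in the knockout, while ZNF740 has no second one to set beside it.

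ZNF518A and ZNF770 had probe sets that did not go the same way. The brightest of ZNF518A gave 70.7 in the knockout and 172 in wild type, a log2 ratio of -1.28, and the others -0.81 and a bound of 0.28. For ZNF770 the brightest gave 51.9 in the knockout, under the limit, and 198 in wild type, at least 3.41-fold lower, while the other gave 97.6 in the knockout and 84.7 in wild type, a ratio of 0.20. The direction of ZNF770 therefore turns when probe sets shared between transcripts are left out.

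**Figure D2:**
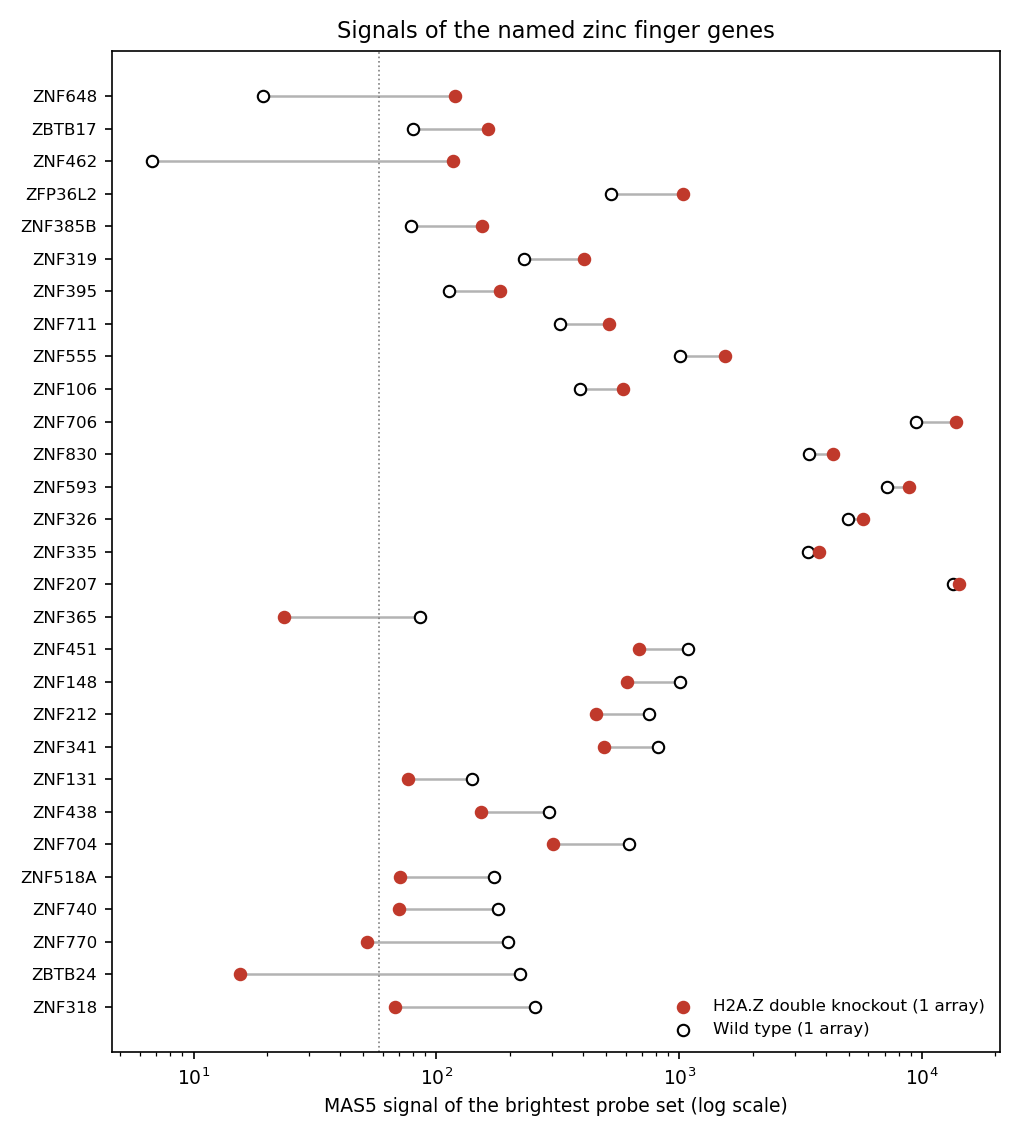
MAS5 signals of the 29 named zinc finger genes on a log axis, ordered by log2 ratio from the highest at the top to ZNF318 at the bottom, with 1 filled point for the H2A.Z double knockout array and 1 open point for the wild-type array. The dotted line marks the limit of 58, under which lie the wild-type points of ZNF648 and ZNF462 and the knockout points of ZBTB24, ZNF770 and ZNF365.

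Among members above the limit on both arrays, those lower by 1.5-fold to 2-fold were ZNF438, ZNF131, ZNF341, ZNF212, ZNF148 and ZNF451. ZNF341, which activates the STAT3 gene in human lymphocytes, had 491 in the knockout and 820 in wild type, a log2 ratio of -0.74, and its second probe set gave -0.66. ZNF438 had 153 in the knockout and 289 in wild type (-0.92), and its second probe set, under the limit in the knockout, was at least 1.55-fold lower. Both genes were thus lower on each of their probe sets.

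ZNF131, a protein that carries a BTB domain under a ZNF symbol, had 76.3 in the knockout and 140 in wild type, a log2 ratio of -0.88. ZNF212 had 455 in the knockout and 752 in wild type (-0.73). Each of these has 1 measured probe set. ZNF148, which binds GC-rich promoter elements, had 608 in the knockout and 1003 in wild type (-0.72), but another of its 3 probe sets gave 0.05. The SUMO ligase ZNF451 had 680 in the knockout and 1087 in wild type (-0.68), and its 4 probe sets ran from -0.97 to 0.15.

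Members above the limit in wild type only, with bounds under 2-fold, included ZBTB33 and ZNF521. ZBTB33 encodes Kaiso, a BTB protein that binds methylated CpG, and had 5.13 in the knockout and 78.3 in wild type, at least 1.35-fold lower. ZNF521, a partner of the B cell factor EBF1 in mammals, had 13.8 in the knockout and 77.6 in wild type, at least 1.34-fold lower. ZNF831, ZNF507, ZBTB41 and ZNF365 belonged here too, with bounds from -0.92 to -0.56 on the log2 scale. All 6 were near the limit on the wild-type array, with signals of 77.6 to 110.

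Higher in the knockout by 2-fold were ZBTB17, ZNF462 and ZNF648. ZBTB17 encodes MIZ-1, the BTB partner through which MYC represses genes, and is needed for early B cell development in mice. Its signal was 163 in the knockout and 79.8 in wild type, a log2 ratio of 1.03 or 2.04-fold higher, while its second probe set gave 98.8 in the knockout and 86.7 in wild type, a ratio of 0.19. With the median over both probe sets its ratio was 0.61. ZNF462, a chromatin protein of neural development in mammals, had 116 in the knockout and 6.76 in wild type, at least 2.01-fold higher, with a second probe set at least 1.61-fold higher. ZNF648 had 119 in the knockout and 19.2 in wild type, at least 2.06-fold higher on 1 measured probe set.

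ZFP36L2 lay just short of 2-fold. Together with ZFP36L1 it destabilises messenger RNAs with AU-rich elements, and the pair holds developing B cells in a resting state in mice. Its signal was 1038 in the knockout and 521 in wild type, a log2 ratio of 0.99 or 1.99-fold higher. ZFP36L1 had 1019 in the knockout and 1243 in wild type, a log2 ratio of -0.29 with a second probe set at -0.17. The pair thus lay on opposite sides of 0, with ZFP36L2 beyond the probe set SD and ZFP36L1 within it. ZFP36L2 has 1 measured probe set. Both measured probe sets of ZFP36L1 are of the type shared between transcripts, and its unshared one was under the limit on both arrays.

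The other members above the limit on both arrays and at least 1.5-fold higher were ZNF385B, ZNF319, ZNF395, ZNF711, ZNF555 and ZNF106. ZNF319 had 406 in the knockout and 229 in wild type, a log2 ratio of 0.83, and its second probe set gave 0.68. ZNF711, a relative of ZFX that works with the histone demethylase PHF8 in human cells, had 515 in the knockout and 321 in wild type (0.68), and its 4 probe sets ran from 0.12 to 0.76. These 2 genes were higher on every measured probe set.

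ZNF385B had 153 in the knockout and 78.4 in wild type, a log2 ratio of 0.97, but its second probe set was above the limit in wild type only, at a bound of -0.11. ZNF395 had 183 in the knockout and 112 in wild type (0.71) on 1 probe set. ZNF555 had 1545 in the knockout and 1004 in wild type (0.62), with a second probe set at 0.08, and ZNF106 had 586 in the knockout and 390 in wild type (0.59), with another probe set at 0.76 and a dim one at a bound of -0.14. ZNF385B and ZNF106 thus each had a probe set lower by a bound beside brighter ones that were higher.

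**Figure D3:**
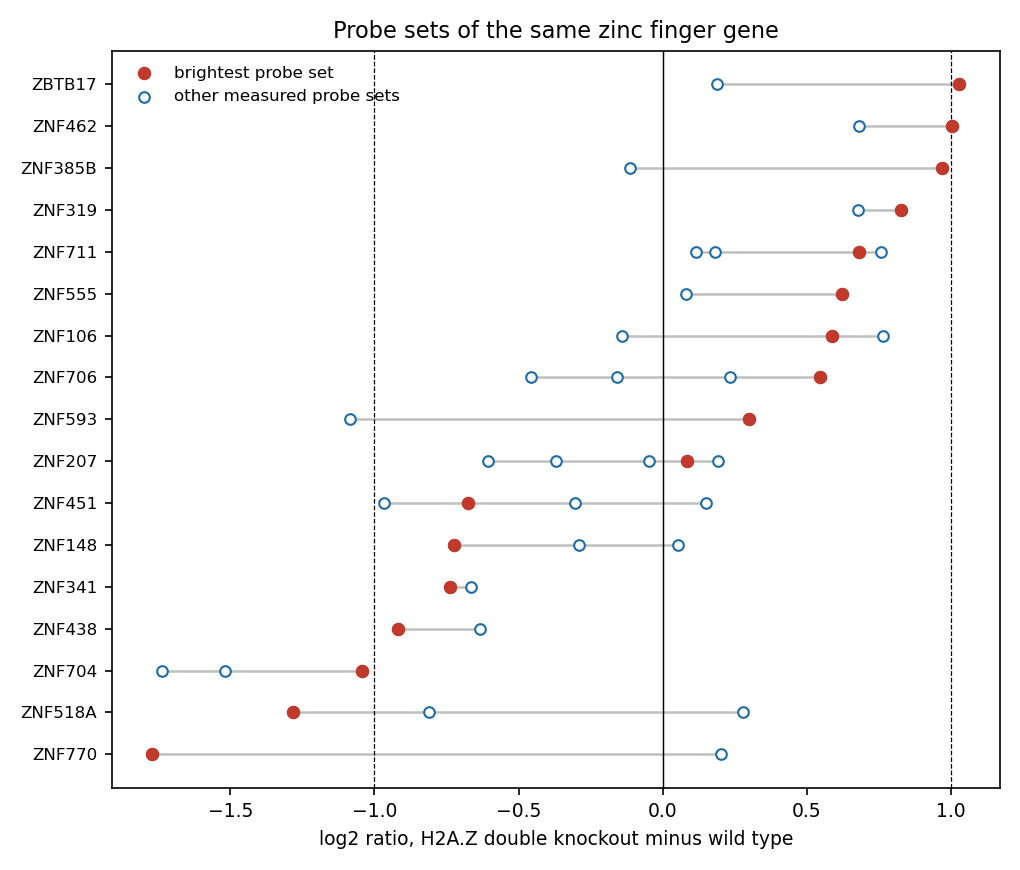
The log2 ratio (H2A.Z double knockout minus wild type, horizontal axis) of each measured probe set for the 17 named zinc finger genes that have more than 1, with the brightest probe set filled and the others open, and dashed lines at 2-fold. Probe sets of ZNF704, ZNF341, ZNF438, ZNF319, ZNF462 and ZNF711 stay on 1 side of 0, whereas those of ZNF770, ZNF518A, ZNF593 and ZNF706 lie on both.

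Disagreement of this kind was common in the class. Of the 98 members, 42 had 1 measured probe set and 56 had 2 to 5, and in 31 of the 56 the probe sets lay on both sides of 0. Counting probe sets above the limit on both arrays, 23 of 45 members had both signs (51.1%), beside 43.0% of 3515 genes on the whole array. The median range between probe sets of a member was 0.45 on the log2 scale, beside 0.47 over all genes. A ratio beyond the array-wide probe set SD was found in 43 members (43.9%), beside 43.7% of measured genes.

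The 6 members with the highest signals were all within 1.5-fold on the 2 arrays. So were 78.5% of all genes with a brighter array above 1000, so this count is not a result about these members. Signals of different probe sets are not on a common scale and give no order of transcript levels. ZNF207 encodes BuGZ, which stabilises the spindle checkpoint protein BUB3 in human cells. It had 14210 in the knockout and 13388 in wild type, a log2 ratio of 0.09, with 5 probe sets from -0.61 to 0.19. ZNF706 had 13780 in the knockout and 9451 in wild type (0.54), but a second bright probe set gave 7394 in the knockout and 10148 in wild type (-0.46). ZNF593, a relative of the yeast ribosome export factor Bud20, had 8809 in the knockout and 7160 in wild type (0.30), while a dim probe set gave 56.3 in the knockout and 123 in wild type (a bound of -1.08). Probe sets of these 3 genes lay on both sides of 0.

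The other 3 of the 6 have 1 measured probe set each, of the type shared between transcripts. ZNF326, a subunit of a complex that links RNA polymerase II to splicing, had 5698 in the knockout and 4948 in wild type, a log2 ratio of 0.20. The splicing-associated ZNF830 had 4306 in the knockout and 3428 in wild type (0.33). ZNF335, a coactivator mutated in human microcephaly, had 3756 in the knockout and 3375 in wild type (0.15). All 3 ratios are within the probe set SD.

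By symbol class, the 24 ZBTB genes had a median log2 ratio of 0.18, with 14 higher and 10 lower. The 67 ZNF genes had a median of -0.0032, with 33 higher and 34 lower, and the 7 ZFP genes one of 0.03, with 4 higher and 3 lower. Over all measured genes, 51.5% were higher. Past 1.5-fold were 3 higher (12.5%) and 2 lower (8.33%) ZBTB genes, and 8 higher (11.9%) and 13 lower (19.4%) ZNF genes, against 12.6% higher and 15.9% lower of all measured genes. Whether the classes differ from each other was not tested. The probe set SD is that of a single gene and gives no measure of the gap between class medians.

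Within the ZBTB class, ZBTB17 was past 2-fold higher (4.17%, against 3.95% of all measured genes) and ZBTB24 past 2-fold lower (4.17%, against 6.71%). ZBTB47, ZBTB41 and ZBTB7A had bounds past 1.5-fold, and bounds give no order. ZBTB47 had 106 in the knockout and 32.2 in wild type, at least 1.83-fold higher, with another probe set at a bound of -0.08. ZBTB41 had 40.2 in the knockout and 101 in wild type, at least 1.74-fold lower. ZBTB7A, a regulator of B cell against T cell fate in mice, had 91.7 in the knockout and 47.1 in wild type, at least 1.58-fold higher. The few ZBTB genes with signals above 1000 on an array were all within 1.5-fold, as were 78.5% of all genes in that range. ZBTB38, which binds methylated CpG, had 2403 in the knockout and 2465 in wild type, a log2 ratio of -0.04. ZBTB10 had 2290 in the knockout and 2537 in wild type (-0.15), ZBTB2 had 1954 in the knockout and 1601 in wild type (0.29) and ZBTB11 had 2182 in the knockout and 1520 in wild type (0.52). Another probe set gave -0.32 for ZBTB38 and -0.10 for ZBTB2, and the 3 of ZBTB10 ran from -0.55 to 0.04. Probe sets of ZBTB2 and ZBTB10 thus lay on both sides of 0.

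Some members lie next to each other on GRCg7b. ZBTB43 and ZBTB34, neighbours on chromosome 17, had 156 in the knockout and 195 in wild type (log2 ratio -0.32) and 443 in the knockout and 637 in wild type (-0.52, with a second probe set at -1.01). ZNF236 and ZNF516, neighbours on chromosome 2, had 795 in the knockout and 610 in wild type (0.38) and 2729 in the knockout and 2970 in wild type (-0.12). The 5 measured probe sets of ZNF236 ran from -0.35 to 0.66, so the contrast of this pair depends on the probe set. ZNF71 and ZBTB45, neighbours on chromosome 31, had ratios of 0.32 and -0.01. ZBTB10 and ZNF704 on chromosome 2, with 1 gene between them, had ratios of -0.15 and -1.04. Members were spread over 27 chromosomes, with 14 on chromosome 2 (5 higher and 9 lower, median -0.23, beside -0.08 for its 789 measured genes) and 10 on chromosome 3 (5 higher and 5 lower, median -0.08, beside -0.02). On all chromosomes together, 51.5% of measured genes were higher.

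Regulators of lymphoid and blood cells made up the first role group, with 12 of 17 listed genes measured and a median log2 ratio of 0.17. Past 2-fold were 1 higher gene (8.33%, against 3.95% of all measured genes), ZBTB17, and 2 lower (16.7%, against 6.71%), ZBTB24 and ZNF318. Of the 12, 6 were within 1.5-fold on both arrays and ZNF521 was a bound under it (together 58.3%, against 71.5% of all measured genes). With 12 genes, each gene moves such a share by 8.33 percentage points. ZNF423, which binds EBF1 in mammals, had 240 in the knockout and 199 in wild type (0.27), while another of its probe sets gave 130 in the knockout and 56.4 in wild type, at least 2.25-fold higher. ZBTB25 had 253 in the knockout and 325 in wild type (-0.36), but its 5 probe sets ran from -1.41 to 0.28. ZBTB18 had 788 in the knockout and 751 in wild type (0.07).

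Methyl-CpG readers and factors of telomeres and genome stability formed the second group. Of 12 listed genes 10 were measured, with a median of -0.09, 4 higher and 6 lower, where 51.5% of all measured genes were higher. ZBTB24 was the only one with a ratio or bound past 2-fold (10.0%, against 6.71% of all measured genes). ZBTB48, which binds telomere repeats and limits their length in human cells, had 879 in the knockout and 685 in wild type (log2 ratio 0.36). ZNF827, which brings the NuRD complex to telomeres in human cells, had 558 in the knockout and 402 in wild type (0.48), while a dim probe set, under the limit in the knockout, was at least 1.16-fold lower. Both are among the 6 genes of this list within 1.5-fold on both arrays, and ZBTB33 and ZNF365 were lower by bounds under 1.5-fold. Together these made up 80.0% of the list, against 71.5% of all measured genes.

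Proteins that act on RNA, ribosomes, the spindle or ubiquitin were the third group, with 17 of 25 listed genes measured, all above the limit on both arrays. Their median was 0.16, with 11 higher and 6 lower, where 51.5% of all measured genes were higher. None was past 2-fold. Among all genes above the limit on both arrays, 3.23% were past 2-fold upward and 6.55% downward. With 17 genes, the lack of such a gene is therefore not a result about this group. ZNF598, the ubiquitin ligase of collided ribosomes, had 2655 in the knockout and 2522 in wild type (0.07). ZNF622, a relative of a yeast factor that matures the large ribosomal subunit, had 2666 in the knockout and 3316 in wild type (-0.32). The farthest were ZFP36L2, ZNF385B and ZNF451, described above.

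Activators and partners of corepressors were the fourth, with 18 of 26 listed genes measured and a median of -0.09. In this group 7 were higher and 11 lower, where 51.5% of all measured genes were higher. Past 2-fold was 1 higher gene, ZNF462 (5.56%, against 3.95% of all measured genes), and no lower one (against 6.71%). At 1.5-fold, 2 were higher, ZNF462 and ZNF711 (11.1%, against 12.6%), and 2 lower, ZNF131 and ZNF148 (11.1%, against 15.9%). ZNF143, an activator found at many promoters, had 443 in the knockout and 645 in wild type, a log2 ratio of -0.54, with a second probe set at -0.09. Its relative ZNF76 had 265 in the knockout and 281 in wild type (-0.08). The 4 probe sets of ZNF76 ran from -0.15 to a bound of 1.26 (139 in the knockout and 10.8 in wild type). ZFP64 had 1950 in the knockout and 2641 in wild type (-0.44), and its dimmer probe set 121 in the knockout and 275 in wild type (-1.18). ZNF644, a partner of the H3K9 methyltransferases EHMT1 and EHMT2, had 3124 in the knockout and 3675 in wild type (-0.23), with 5 probe sets from -1.004 to 0.64. ZNF410, which activates CHD4 in human cells, had 1746 in the knockout and 1352 in wild type (0.37). CHD4 itself had 3588 in the knockout and 2893 in wild type (0.31), but its 4 probe sets ran from -1.53 to 0.31.

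**Figure D4:**
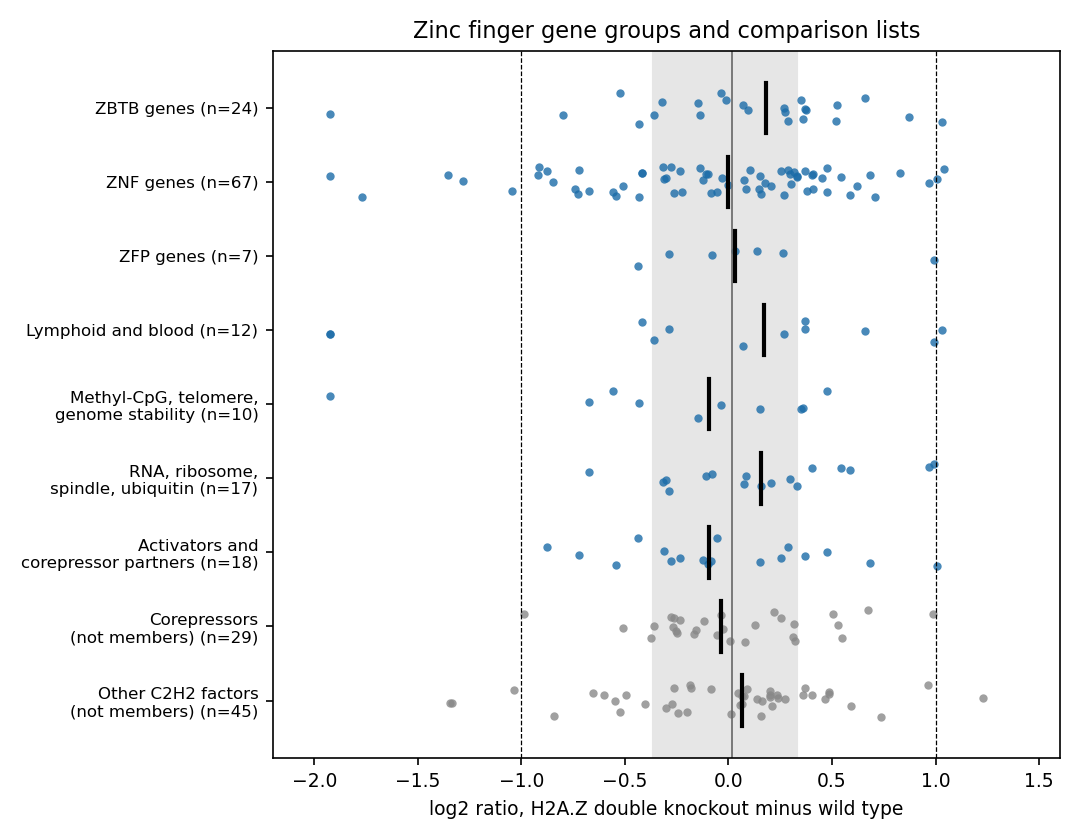
The log2 ratio (H2A.Z double knockout minus wild type) of every measured gene in 3 symbol classes and 4 role groups of zinc finger genes and, in grey, 2 comparison lists of other genes, with 1 point per gene and a black bar at each median. The grey band is the interquartile range of all 9550 measured genes (-0.36 to 0.33), the thin line is their median (0.02) and dashed lines mark 2-fold. All group medians lie inside the band, but the band is a spread of single genes and gives no measure of a shift in a group median.

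Zinc finger proteins that repress genes do so through shared corepressors, and 29 of 40 listed corepressor genes were measured. Their median log2 ratio was -0.04. Of the 27 above the limit on both arrays, none was 2-fold apart and 25 were within 1.5-fold. Among all genes of that kind, 72.8% were within 1.5-fold, 3.23% past 2-fold upward and 6.55% downward. With 27 genes, the lack of one past 2-fold is not a result about this list. The bounds of TRIM28 and RCOR1 were under 2-fold. MBD2, the methyl-CpG reader of a NuRD complex, was the highest of the 27, with 2858 in the knockout and 1442 in wild type (0.99). MBD2 passed 2-fold after median centring (1.14) or quantile normalization (1.02). RCOR1, a scaffold of the LSD1 complex, had 50.6 in the knockout and 115 in wild type, at least 1.98-fold lower. HDAC7 had 103 in the knockout and 64.5 in wild type (0.67), with a second probe set at -0.58. NCOR1 (-0.28), CUL3 (-0.06) and HDAC3 (0.26), partners of BTB domains, were within 1.5-fold on their brightest probe sets. The 5 probe sets of NCOR1 ran from -1.41 to -0.23 and were thus all lower. Those of CUL3 ran from -0.46 to 0.28 and those of HDAC3 from -0.51 to 0.26.

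Other C2H2 factors, listed under symbols outside the rule, had 45 of 74 genes measured and a median of 0.07, with 1 gene higher (2.22%, against 3.95% of all measured genes) and 3 lower (6.67%, against 6.71%) by 2-fold or more. BCL11A, a factor required for B cell development in mice, had 2532 in the knockout and 6430 in wild type, a log2 ratio of -1.34, with its 4 probe sets from -1.80 to -0.51. IKZF1, which encodes Ikaros, had 1232 in the knockout and 3113 in wild type (-1.34, second probe set -1.46). HIVEP1 had 141 in the knockout and 60.2 in wild type (1.23). HIVEP3, with 19.1 in the knockout and 119 in wild type, was at least 2.05-fold lower. Of the BTB genes under other symbols only BCL6 and MYNN were measured. BCL6, the germinal centre repressor, had 1155 in the knockout and 1790 in wild type (-0.63, second probe set -1.004). MYNN had 1257 in the knockout and 727 in wild type (0.79). The 4 probe sets of MYNN ran from -0.19 to 0.79, and their median was 0.0055.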

How the data were processed

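RNA of 1 double knockout and 1 wild-type DT40 culture was labelled with biotin and hybridised to Affymetrix chicken arrays. The authors deposited 1 intensity per probe set, with MAS5 as the tool that the submitters' processing notes name; version and scaling target: not given in the sources used here. Both arrays had a trimmed mean of 499.9, so they had been scaled alike, and a single factor per array leaves any trend with brightness. The number of arrays limits the precision.

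Of 38535 probe sets, 96 were controls. Symbols came from the platform annotation, 1 gene for 27168 of the others, several for 177 and none for 11094; probe sets with several genes were not used. Gene identifiers of 96 of 98 members were in RefSeq GRCg7b, with 0 symbols changed; it served for chromosomes and neighbours only. Signals under 58 were set to 58, and each gene took its measured probe set of highest mean log2 signal (Python 3.11.15, numpy 2.4.6, pandas 2.3.3, statsmodels 0.14.6). The computation was tested on simulated data. No p-value was computed.

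Named genes were both H2A.Z genes, up to 12 members per direction past 1.5-fold on both arrays, up to 4 bounds per direction past 2-fold, the 6 members of highest mean signal, and the 3 largest ratios of each list; others named were chosen after their values were seen. Members and lists were chosen with earlier results of these data known. The alternatives, 9 in all, were 3 scalings, 2 floors, a filter, a pseudocount and 2 treatments of probe sets. A planned count of fingers per protein was not made.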

Additional observations from a re-analysis of the deposited data

How the results depend on the processing

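With 1 array per group, a change of setting shows only how a value depends on processing, and dim signals near the limit of 58 set what could be measured. Median centring moved the median of all genes from 0.02 to 0.16, and the member medians moved with it: 0.19 for all members, 0.23 for those above the limit on both arrays, 0.33 for ZBTB genes and 0.13 for ZNF genes. The median of ZNF genes, -0.0032 as deposited, was also above 0 after quantile normalization (0.080) or loess (0.054), for a floor of the 25th (0.074) or 75th percentile (0.103) of signals, with genes above the limit on both arrays only (0.035) and without shared probe sets (0.021). The median of all members stayed above 0 in all 9 alternatives, from 0.02 to 0.19.

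The count of members at least 2-fold higher, 3 as deposited, became 6 under median centring, also 6 for the 25th percentile floor, 1 with genes above the limit on both arrays only, with a pseudocount or with the median over probe sets, and 0 for the 75th percentile floor. The count at least 2-fold lower, 6 as deposited, became 13 for the 25th percentile floor and 1 for the 75th. At that higher floor, which measured 58 members, 4 were at least 1.5-fold higher and 5 lower. The share of lower genes among members past 2-fold was 66.7% as deposited, 45.5% after median centring and 55.6% after quantile normalization. The same share over all genes was 63.0%, 45.8% and 55.5%, by the same settings.

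ZNF770 turned from -1.77 to 0.20 without shared probe sets, where a different probe set was read. Of the 427 alternative values for named genes, 395 moved by no more than the probe set SD and 32 moved farther. The 395 include values that a setting could not change. A sign opposite to the deposited one was found in 6 values of 4 genes: ZNF770, ZNF593 (-0.39 with the median over probe sets, -1.08 without shared ones), ZNF706 (-0.46 without shared ones) and ZNF207 (-0.0081 with loess, -0.048 with the median). Of the members past 2-fold, ZNF318 was past it in all 8 alternatives that measured it, ZBTB24 in 6 of 6, ZNF740 in 7 of 8, ZNF518A and ZBTB17 in 6 of 8, ZNF648 in 6 of 7, ZNF770 in 5 of 7, ZNF704 in 5 of 9 (with a weakest ratio of -0.89) and ZNF462 in 3 of 7 (weakest 0.47). Some of these agreements were fixed in advance. A gene with 1 measured probe set, such as ZNF318, ZBTB24 or ZNF740, keeps its ratio under the median over probe sets. ZNF318 and ZNF740 also keep theirs under the filter, the lower floor and without shared probe sets. ZBTB33 passed 2-fold lower with the 25th percentile floor and with the pseudocount, and RCOR1 with that floor (-1.18) and with loess (-1.08). No paired analysis was possible because each group has 1 array.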

Other observations

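Probe sets assigned to several genes were left out of the comparisons, and 3 of them carry a zinc finger symbol. The probe set shared by ZBTB8AL and ZBTB8A had a signal of 471 in the knockout and 405 in wild type, a log2 ratio of 0.22. Those shared by ZNF512B and UCKL1 had 296 in the knockout and 283 in wild type (0.06), and 156 in the knockout and 117 in wild type (0.41). All 3 are within 1.5-fold.

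Of the 20 zinc finger symbols with no signal above 58 on either array, ZBTB20, ZBTB32 and ZNF366 are examples. The highest signal among the 20 was 57.0, for ZNF654 on the knockout array. No statement on the absence of their transcripts follows from a dim probe set.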
